A study of Mus musculus with 6 samples.

Results

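The transcripts of 10 genes of cell adhesion were followed in macrophages that had been cultured together with neutrophils from the injured spinal cord. The genes were set by a list of symbols that does not rest on a threshold on their values, although earlier results of these data were known when it was drawn up, and they are 10 of the 55335 genes listed for each library. They comprise 7 integrin subunits, namely *Itgam*, *Itgal*, *Itgb2*, *Itga4*, *Itgb1*, *Itga5* and *Itgav*, and 3 adhesion molecules of the immunoglobulin superfamily, *Icam1*, *Vcam1* and *Pecam1*. The study compared 3 libraries of bone marrow-derived macrophages (BMDMs) co-cultured with *Cd177* WT neutrophils with 3 libraries of BMDMs co-cultured with *Cd177* KO neutrophils. The macrophages of all 6 libraries carried the WT genotype and had been grown from mouse bone marrow for 7 days in medium with M-CSF, the growth factor of macrophages, at 25 ng/ml. Neutrophils were taken by magnetic sorting from the spinal cord lesions of *Cd177* WT or *Cd177* KO mice at 3 days post injury (dpi), and after 24 h of co-culture the Ly6G- cells were sorted for RNA. The study used male mice, its C57BL/6 mice being adult. Genotype of the neutrophil donor was therefore the one factor that the labels set apart, and the libraries are called WT and KO below after that donor. Neither BMDMs cultured alone nor neutrophils alone were analysed here. The sources do not say whether the 3 libraries of a group came from separate animals or cultures, so p-values measure only the spread between these libraries, which may be technical.

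Integrins are receptors made of an alpha and a beta subunit that span the cell membrane and bind matrix proteins or molecules on other cells. On leukocytes the beta2 subunit, CD18, pairs with CD11a to form LFA-1 and with CD11b to form Mac-1, and LFA-1 binds ICAM-1 on the partner cell. The beta1 subunit pairs with alpha4 to form VLA-4, a receptor for VCAM-1 and fibronectin, and with alpha5 to form the classical fibronectin receptor, while alphav pairs with several beta subunits. PECAM-1 mediates contact between endothelial cells and leukocytes during their passage through the vessel wall. These receptors and ligands hold neutrophils and macrophages to each other, to the vessel wall and to the matrix of a wound.

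The RNA level of each gene was given as FPKM (fragments per kilobase of transcript, relative to the fragments of the library), which sets the level per transcript length. The sum of FPKM ran from 302532 to 340717 over the 6 libraries and the number of genes above 0 from 20631 to 22571. The file gives no read counts and the depth is unknown. The macrophage markers *Csf1r*, *Adgre1*, *Cd68* and *Lyz2* were high in every library, and the summed FPKM of 14 macrophage markers lay between 9197 and 11150 in WT and between 10970 and 11870 in KO. Of these 14 markers 5 were called higher in KO (*C1qa*, *C1qc*, *Mertk*, *Tyrobp* and *Adgre1*) and 2 lower (*Cd14*, from a mean of 1010.0 to 99.4 FPKM, and *Fcgr1*, from 121 to 33.8 FPKM), by the limma test given below, in which 27.1% of all tested genes were called higher and 10.5% lower. The rises among them numbered 1 with median-of-ratios scaling, 2 without KO replicate 1 or KO replicate 2, 3 without WT replicate 1 or WT replicate 2 and 8 without WT replicate 3. Over all tested genes the rises numbered 3619 in the main fit and 2145 with median-of-ratios scaling. They numbered 2442 without KO replicate 1 or KO replicate 2, 2730 and 2926 without WT replicates 1 and 2, and 4228 without WT replicate 3. Apart from *Adgre1*, the called macrophage markers were named after their values were seen. Other markers moved with the label. Of 20 neutrophil markers 15 were tested, 12 were higher and 2 lower in KO, against 27.1% and 10.5% of all tested genes. Of the 12, *Cd177*, *Cxcr2* and *Padi4* passed the filter on low values only through the KO libraries (WT means 0.458, 0.382 and 0.286 FPKM). Among untested markers, *Ctsg* and *Elane* had lower and *Ly6g*, *Mpo* and *Prtn3* higher means in KO. With no filter on low values 14 were called higher and 2 lower, against 3180 and 1325 of 28101 genes. The summed FPKM of the 20 markers lay between 247.6 and 320.2 in WT and between 603.6 and 619.0 in KO. *Cd177* itself, the gene deleted in the KO donors, was at 0.545, 0.309 and 0.521 FPKM in WT and at 1.79, 1.84 and 2.28 FPKM in KO, against the direction of the labels, so every direction below is one between the libraries labelled WT and the libraries labelled KO. *Ly6g*, which encodes the antigen of the sort, was listed at 0 in the WT libraries and at 0.660, 0.547 and 0.403 FPKM in KO. Lymphocyte markers summed to between 1.08 and 2.06 FPKM in WT and between 13.4 and 15.9 in KO. Most of the KO sum came from *Ighm* (mean 0.247 FPKM in WT and 9.88 in KO) and *Cd79b* (0.822 and 4.10), named after their values were seen. They were the only 2 tested, and *Ighm* passed the filter on low values only through the KO libraries. Of the 13 lymphocyte markers 9 stayed under 0.1 FPKM in every library. Fibroblast markers summed to between 416.9 and 596.5 FPKM in WT and between 492.7 and 554.7 in KO. None of 7 dendritic cell markers passed the filter on low values, and of 3 tested platelet markers 1 was lower in KO. Because these are bulk samples, fewer cells of a type and less RNA per cell cannot be told apart, and the part of these other cell types in the results below was not tested.

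Of the 10 genes, *Itga4*, *Itgb1* and *Vcam1* rose and *Itgal*, *Itga5* and *Icam1* fell in KO libraries, while *Itgam*, *Itgb2*, *Itgav* and *Pecam1* did not pass the test. The test was limma on log2(FPKM + 0.5) over the 13367 genes whose level averaged 0.5 FPKM or more, a filter all 10 passed, with calls at an adjusted p under 0.05. A difference on this scale understates the change of genes with few FPKM. With 27.1% of all tested genes called higher and 10.5% lower, 3 of 10 called higher is close to the background and 3 of 10 called lower is above it. The same 6 genes were those whose WT and KO libraries did not overlap, 3 higher against 37.5% of all tested genes and 3 lower against 14.4%. At the threshold of the study (fold change above 2 and unadjusted p under 0.05), applied to the same limma fit, 1 gene was higher (*Itga4*) and 1 lower (*Itgal*), against 6.68% and 4.43% of all tested genes. *Vcam1*, with a ratio of mean FPKM of 2.07, missed that fold on the log2(FPKM + 0.5) scale, where its difference was 0.99, and passed 1 with a pseudocount of 0.1 (1.04). The median log2 fold change was 0.16 over the 10 genes and 0.19 over all tested genes, and without WT replicate 3 the median of the 10 was 0.019.

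Most called genes were higher in KO (72.0% of all calls), and this share depends on the scaling between libraries. It was 63.5% after upper-quartile scaling and 49.1% after median-of-ratios scaling, which moved the median of all genes from 0.19 to -0.002 on the log2 scale. Under median-of-ratios scaling the median of the 10 genes was -0.01. Calls of *Itgal*, *Itga4*, *Itga5*, *Icam1* and *Vcam1* were made in the same direction under all 15 alternative limma fits at an adjusted p under 0.05, and that of *Itgb1* under 7 of them. At the fold threshold of the study *Itga5*, *Icam1*, *Vcam1* and *Itgb1* were not counted.

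**Figure D1:**
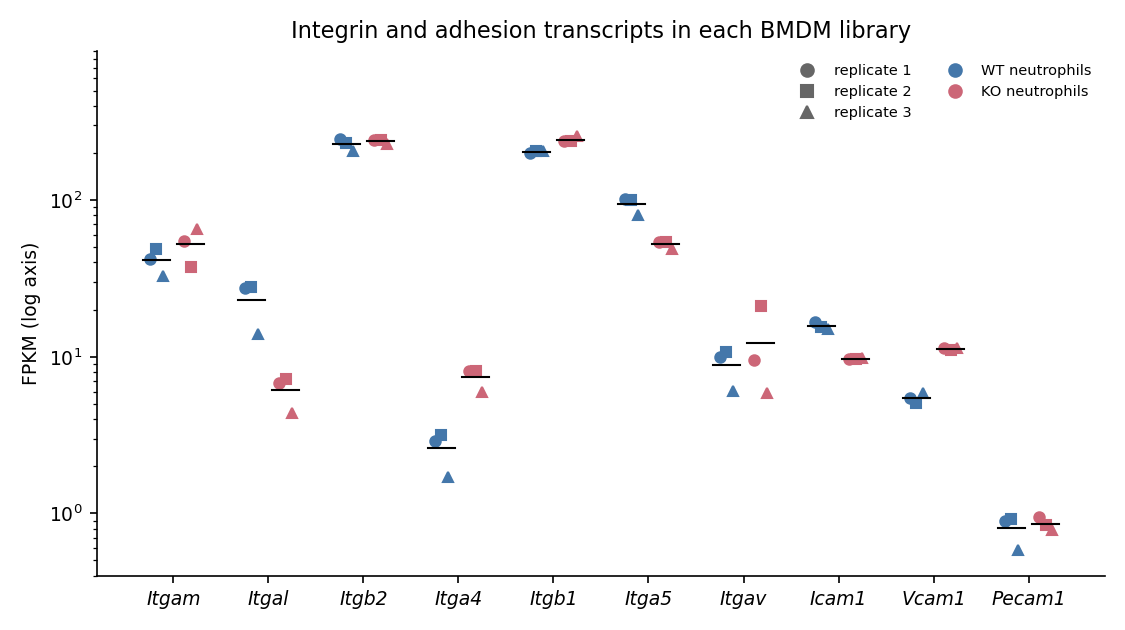
FPKM of the 10 adhesion genes, on a log axis, in each of the 6 libraries, with WT libraries in blue and KO libraries in red. Each symbol is 1 library, its shape gives the replicate number, and the line is the mean of the group (n = 3). The WT and KO points stand apart for *Itgal*, *Itga4*, *Itgb1*, *Itga5*, *Icam1* and *Vcam1* and overlap for *Itgam*, *Itgb2*, *Itgav* and *Pecam1*.

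**Figure D2:**
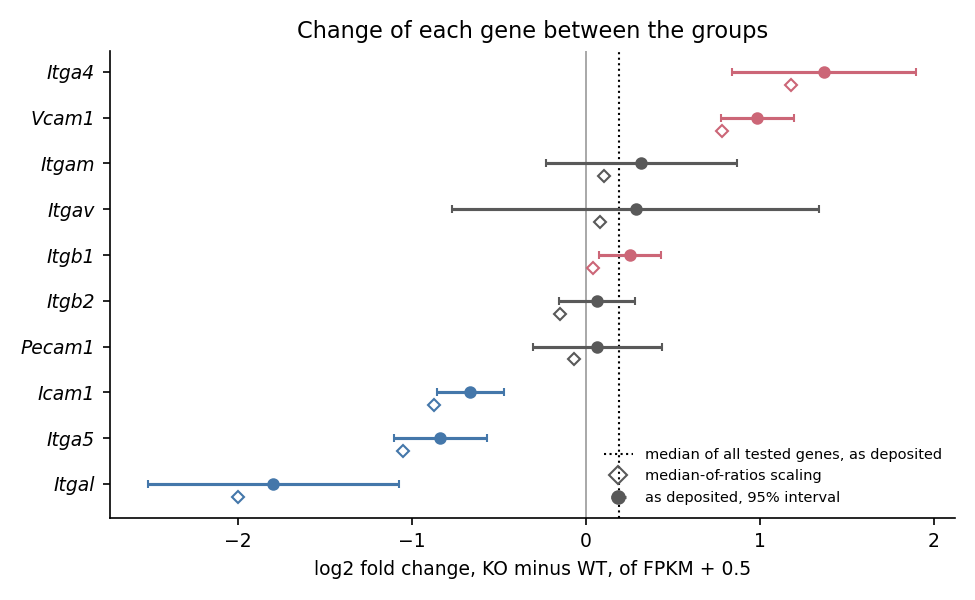
Difference KO minus WT in log2(FPKM + 0.5) of the 10 adhesion genes with values as deposited (filled circles, 95% interval from limma, n = 3 per group) and after median-of-ratios scaling (open diamonds); the dotted line is the median of all tested genes, 0.19. The intervals of 6 genes as deposited lie clear of 0, from *Itgal* at -1.80 to *Itga4* at 1.37, and those of *Itgam*, *Itgb2*, *Itgav* and *Pecam1* include 0.

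The beta2 integrin genes differed from each other in how they behaved. *Itgb2* (chr10:77530252-77565708, plus strand, GRCm38), which encodes CD18, was at 244.5, 233 and 205 FPKM in WT and at 240.5, 243 and 229.9 FPKM in KO. The groups overlapped, and it was among the most abundant of all tested transcripts (98.9th percentile of the mean level). The difference in log2(FPKM + 0.5) was 0.07, with a 95% interval from -0.15 to 0.28 (limma, adjusted p = 0.607).

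*Itgal* (chr7:127296260-127335138, plus strand) encodes CD11a, the alpha subunit of LFA-1. Its level was 27.4, 27.96 and 13.9 FPKM in WT and 6.79, 7.19 and 4.39 FPKM in KO. Every KO library was below every WT library, and replicate 3 was the lowest of its group in both. *Itgal* fell from a mean of 23.1 ± 7.97 to 6.12 ± 1.51 FPKM (SD, n = 3 per group), a level 3.77-fold higher in WT than in KO, with a log2 fold change of -1.80 (SE 0.30, limma, adjusted p = 0.00418). Its fold change lay at the 1.8th percentile of all tested genes.

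*Itgam* (chr7:128062640-128118491, plus strand), which encodes CD11b of Mac-1, was at 42.4, 49.0 and 33.0 FPKM in WT and at 55.2, 37.3 and 65.3 FPKM in KO. The highest values were both in KO, but KO replicate 2 lay between the WT libraries. The log2 fold change of 0.32 (95% interval -0.23 to 0.87, limma, adjusted p = 0.319) did not pass the test, and without replicate 3 of both groups it was -0.007. *Itgal* and *Itgam* lie on chromosome 7 with 727.5 kb between them, and *Itgam* is followed after 11.1 kb by *Itgax* and then after 3.7 kb by *Itgad*, all on the plus strand. Neutrophils express *Itgam*, *Itgal* and *Itgb2* as macrophages do. Of the 15 tested neutrophil markers 12 were called higher in KO, against 27.1% of all tested genes, and 2 lower, against 10.5%. These 12 include *Cd177*, *Cxcr2* and *Padi4*, which passed the filter on low values only through the KO libraries. Among the rises *Ngp*, a granule protein, was at 10.7, 12.6 and 15.3 FPKM in WT and 105.0, 106 and 110.3 FPKM in KO. The falls, named after their values were seen, were *Hp* (mean 27.9 FPKM in WT and 7.22 in KO) and *Mmp8* (21.9 and 9.80). The part of neutrophil RNA in the *Itgal* values was not tested.

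Among the beta1 and alphav genes, *Itga4* and *Itga5* moved in opposite directions. *Itga4* (chr2:79255426-79333123, plus strand), which encodes the alpha4 subunit of VLA-4, was at 2.91, 3.19 and 1.71 FPKM in WT and at 8.17, 8.13 and 5.93 FPKM in KO. All KO libraries lay above all WT libraries. *Itga4* rose 2.84-fold, from 2.61 ± 0.783 to 7.41 ± 1.28 FPKM (SD, n = 3 per group), with a log2 fold change of 1.37 (SE 0.22, limma, adjusted p = 0.00358). Lymphocytes and immature myeloid cells also express alpha4, and *Ighm*, the heavy chain of IgM, was at 0.391, 0.293 and 0.0573 FPKM in WT and at 9.66, 9.43 and 10.5 FPKM in KO.

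*Itga5* (chr15:103344286-103366763, minus strand) encodes the alpha5 subunit of the fibronectin receptor. It was at 102, 99.9 and 80.7 FPKM in WT and at 54.3, 54.0 and 48.9 FPKM in KO. The lowest WT library stood well above the highest KO library. *Itga5* was 1.80-fold higher in WT, at 94.3 ± 11.8 against 52.4 ± 3.01 FPKM (SD, n = 3 per group), a log2 fold change of -0.84 (SE 0.11, limma, adjusted p = 0.00163).

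*Itgb1* (chr8:128685654-128733200, plus strand), which encodes the common beta1 subunit CD29, was at 201, 207 and 205 FPKM in WT and at 237, 239 and 255 FPKM in KO. The groups did not overlap and the spread within them was among the smallest (within-group SD of 0.044 on the log2 scale, 2.3rd percentile of tested genes). The rise from 204 ± 2.91 to 244 ± 10.1 FPKM (SD, n = 3 per group) was 1.19-fold, with a log2 fold change of 0.25 (SE 0.07, limma, adjusted p = 0.0346). With median-of-ratios scaling the log2 fold change of *Itgb1* was 0.04 (limma, adjusted p = 0.747), and with no filter on low values the adjusted p was 0.0720. Leaving out any library but WT replicate 3 also ended the call, with adjusted p from 0.0761 to 0.109 in limma.

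*Itgav* (chr2:83724397-83806916, plus strand), the alphav subunit, was at 9.95, 10.7 and 6.01 FPKM in WT and at 9.48, 21.1 and 5.90 FPKM in KO. KO replicate 2 was the highest and KO replicate 3 the lowest of all 6 libraries. The log2 fold change of 0.29 (95% interval -0.77 to 1.34, limma, adjusted p = 0.645) did not pass the test, and without KO replicate 2 it was -0.19. The within-group SD of *Itgav* was 0.696 on the log2 scale, the 97.8th percentile of all tested genes, whose median was 0.176.

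The 2 leukocyte integrin ligands of the immunoglobulin superfamily moved in opposite directions and varied little within groups. *Icam1* (chr9:21015985-21028817, plus strand), which encodes the ligand of LFA-1 and Mac-1, was at 16.7, 15.5 and 15.0 FPKM in WT and at 9.65, 9.69 and 9.84 FPKM in KO. The KO libraries were nearly identical to each other and lay below all WT libraries. The level was 1.61-fold higher in WT, 15.7 ± 0.863 against 9.73 ± 0.1001 FPKM (SD, n = 3 per group), with a log2 fold change of -0.66 (SE 0.08, limma, adjusted p = 0.00102).

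*Vcam1* (chr3:116109949-116129688, minus strand) encodes the ligand of VLA-4. It was at 5.47, 5.04 and 5.86 FPKM in WT and at 11.3, 11.1 and 11.4 FPKM in KO, without overlap. It rose 2.07-fold, from 5.46 ± 0.412 to 11.3 ± 0.149 FPKM (SD, n = 3 per group), a log2 fold change of 0.99 (SE 0.09, limma, adjusted p = 0.000293), the lowest adjusted p of the 10 genes. *Vcam1* is also made by stromal cells, and *Col1a1*, the main collagen of fibroblasts, had a mean of 306 FPKM in WT and 324.5 FPKM in KO. Of the 6 tested fibroblast markers none was called higher and 3 were called lower, *Col3a1* (mean 60.6 FPKM in WT and 30.8 in KO), *Dcn* (2.82 and 1.11) and *Pdgfrb* (19.4 and 11.7).

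*Pecam1* (chr11:106654217-106750628, minus strand) was the least abundant, at 0.895, 0.925 and 0.587 FPKM in WT and at 0.945, 0.842 and 0.778 FPKM in KO. The groups overlapped, and the log2 fold change was 0.07 (95% interval -0.31 to 0.44, limma, adjusted p = 0.771). Of the endothelial markers, *Cdh5* was at 0.711, 0.342 and 0.339 FPKM in WT and 0.327, 0.198 and 0.218 FPKM in KO. *Kdr* was at 0.865, 1.183 and 0.692 FPKM in WT and 0.251, 0.188 and 0.120 FPKM in KO. *Kdr* was called lower (log2 fold change -1.03), but it passed the filter on low values only through the WT libraries. Only *Kdr* and *Vwf* of the endothelial markers passed the filter on low values and were tested. *Egfl7*, with a mean of 0.329 FPKM in WT and 0.665 in KO, was higher in every KO library, and *Vwf*, with means of 2.20 and 2.30 FPKM, was not called. Of 11 endothelial markers 6 stayed under 0.1 FPKM in every library.

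RefSeq windows from 250 bases before to 50 after the start of transcription (GRCm38.p6) were held for 6 of the 10 genes: *Itgam*, *Itga4*, *Itgb1*, *Itga5*, *Itgav* and *Icam1*. The 250 bases upstream are printed for *Icam1* and *Itga5*, which fell together, and for *Itga4*, which rose, each read 5′ to 3′ on the strand of the gene. Capitals mark a match to a motif searched on both strands. They are at chr9:21015690-21015939 (plus) for *Icam1*, chr15:103366792-103367041 (minus) for *Itga5* and chr2:79255176-79255425 (plus) for *Itga4*.
Icam1: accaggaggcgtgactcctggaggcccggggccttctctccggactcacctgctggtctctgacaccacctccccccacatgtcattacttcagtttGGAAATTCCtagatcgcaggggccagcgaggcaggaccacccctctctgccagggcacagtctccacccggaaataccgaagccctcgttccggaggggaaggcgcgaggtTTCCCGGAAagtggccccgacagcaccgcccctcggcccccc
Itga5: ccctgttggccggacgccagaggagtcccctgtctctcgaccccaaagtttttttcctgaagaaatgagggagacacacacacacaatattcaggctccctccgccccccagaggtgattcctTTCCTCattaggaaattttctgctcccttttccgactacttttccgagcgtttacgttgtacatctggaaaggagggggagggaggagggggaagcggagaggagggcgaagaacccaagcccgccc
Itga4: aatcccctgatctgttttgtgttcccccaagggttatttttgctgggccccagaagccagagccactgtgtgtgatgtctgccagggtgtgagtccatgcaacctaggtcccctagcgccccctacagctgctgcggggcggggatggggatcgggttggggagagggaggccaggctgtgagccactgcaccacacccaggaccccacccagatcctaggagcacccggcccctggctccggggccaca

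The motifs were the kB consensus of NF-kB, GAAANNGAA (core of the interferon-stimulated response element), TTCNNNGAA (the GAS element of STAT factors), GAGGAA (PU.1) and TGANTCA (AP-1), and, added after the sequences were read, the kB-like GGAAATTCC, which the consensus as searched does not cover. In *Icam1* the capitals are GGAAATTCC from -153 to -145 and TTCCCGGAA, a GAS match, from -42 to -34 relative to the start. Of 32851 windows of the same length 0.32% held GGAAATTCC and 8.3% a GAS match. The *Itga5* window held 1 PU.1 match, read on the opposite strand as TTCCTC from -127 to -122, a motif that 28.28% of windows held. None of the 6 motifs was found in the *Itga4* window. The kB consensus, found in 4.51% of windows, and AP-1, found in 7.81%, matched none of the 6 windows, and the interferon core, found in 8.56%, matched *Itgav* alone. *Itgam*, *Itgb1* and *Itgav* held 3, 1 and 2 PU.1 matches. These matches describe the letters of the windows and were not tested against the expression values.

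Ratios of alpha to beta subunit within a library do not depend on the scaling between libraries, so they were computed for 5 pairs, with an exact two-sided permutation test over 3 against 3 libraries that cannot give a p below 0.1. *Itgal* was at 11.2%, 12.0% and 6.77% of *Itgb2* in WT and at 2.82%, 2.95% and 1.91% in KO. *Itga5* was at 50.9%, 48.3% and 39.4% of *Itgb1* in WT and at 22.9%, 22.6% and 19.2% in KO. Both ratios were lower in every KO library, by -1.95 and -1.10 on the log2 scale (exact p = 0.1 each, 0.167 after Benjamini-Hochberg adjustment over the 5 ratios). *Itga4* was at 1.45%, 1.54% and 0.838% of *Itgb1* in WT and at 3.44%, 3.41% and 2.32% in KO, higher in every KO library by 1.29 on the log2 scale (exact p = 0.1, adjusted 0.167). *Itgam* was at 17.3%, 20.99% and 16.1% of *Itgb2* in WT and at 22.9%, 15.3% and 28.4% in KO, with groups that overlapped (log2 difference 0.26, exact p = 0.5, adjusted 0.625). The groups also overlapped for *Itgav*, at 4.95%, 5.16% and 2.94% of *Itgb1* in WT and 3.995%, 8.86% and 2.31% in KO (log2 difference 0.04, exact p = 1.0).

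**Figure D3:**
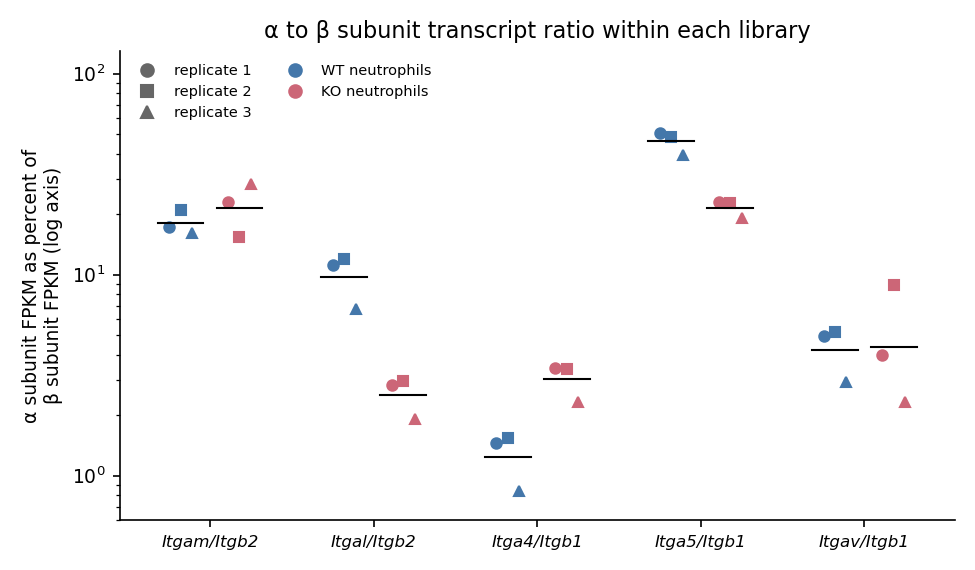
FPKM of an alpha subunit as a percentage of its beta subunit in each library for 5 pairs, on a log axis, with WT libraries in blue, KO libraries in red, the replicate number as symbol shape and the mean of the log ratios as a line (n = 3 per group). *Itgal*/*Itgb2* and *Itga5*/*Itgb1* are lower and *Itga4*/*Itgb1* is higher in all 3 KO libraries, while *Itgam*/*Itgb2* and *Itgav*/*Itgb1* overlap.

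Ordered by mean FPKM, the WT libraries ran *Itgb2*, *Itgb1*, *Itga5*, *Itgam*, *Itgal*, *Icam1*, *Itgav*, *Vcam1*, *Itga4* and *Pecam1*. Neighbours whose libraries overlapped in that order were *Itgb2* with *Itgb1* and *Itgal* with *Icam1*. In KO the order was *Itgb1*, *Itgb2*, *Itgam*, *Itga5*, *Itgav*, *Vcam1*, *Icam1*, *Itga4*, *Itgal* and *Pecam1*, with overlap between *Itgb1* and *Itgb2*, *Itgam* and *Itga5*, *Itgav* and *Vcam1*, and *Itga4* and *Itgal*. *Icam1* was thus above *Vcam1* in every WT library and below it in every KO library. *Itgal* likewise exceeded *Itga4* in each WT library and was below it in each KO library, although their ranges over the KO libraries overlapped.

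Replicate 3 of both groups stood apart along the second principal component (13.5% of variance, against 70.8% for the first, which separated WT from KO). In WT its difference from replicates 1 and 2 went with transcript length over all tested genes, and in KO less so. In WT the median log2 difference of replicate 3 from the mean of the others was 0.29 for 1846 genes with a longest transcript under 1000 nt and -0.42 for 1573 genes of 6000 nt or more. In KO the medians of the length bins, from shortest to longest, were -0.02, 0.12, 0.04, -0.07 and -0.22. For genes of 4000 to 6000 nt the medians were -0.19 in WT and -0.07 in KO. The long *Itga4* (9767 nt) was lower in replicate 3 by -0.68 in WT and -0.43 in KO, *Itgav* (7054 nt) by -0.73 and -1.20, and *Itgal* (5222 nt) by -0.97 and -0.61. These drops were larger than the medians of their length bins, and their cause was not tested. *Itgam* (4682 nt) went -0.46 in WT and 0.52 in KO, whereas *Icam1* (2535 nt), at -0.10 and 0.02, and *Vcam1* (4088 nt), at 0.14 and 0.03, hardly differed. Without replicate 3 of both groups the 10 genes gave 3 calls higher and 3 lower. Over all 13367 tested genes that fit called 4518 higher and 1943 lower, in place of 3619 and 1408.

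**Figure D4:**
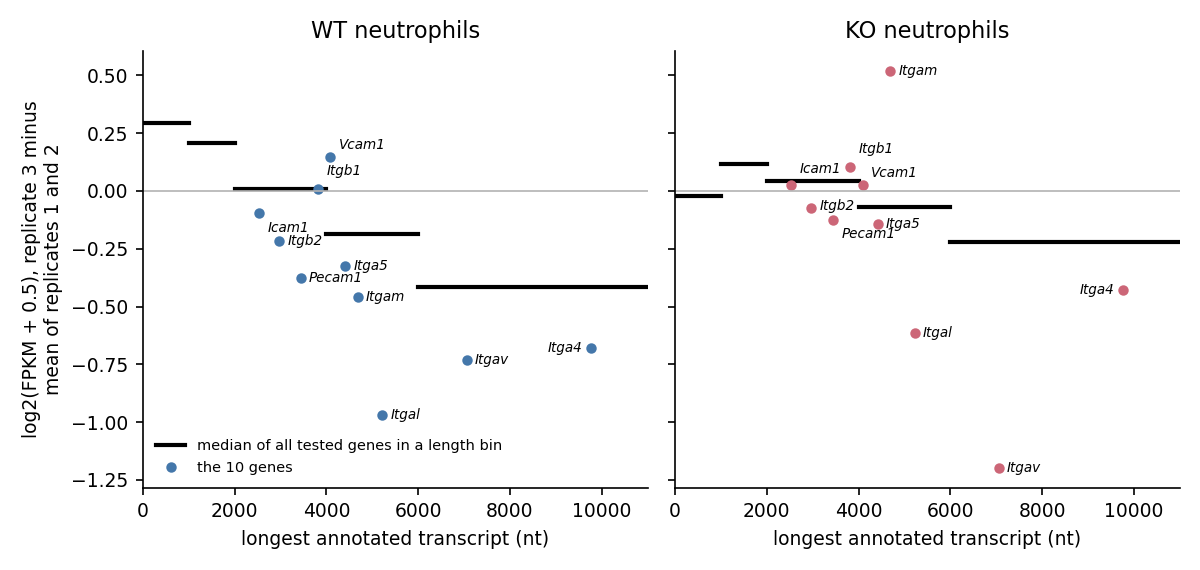
Difference of replicate 3 from the mean of replicates 1 and 2 in log2(FPKM + 0.5) against the longest annotated transcript in nt, for WT (left) and KO (right); points are the 10 adhesion genes and black bars are medians of all tested genes in 5 length bins. In WT the bars fall from 0.29 in the shortest bin to -0.42 in the longest, and *Itgal*, *Itgav* and *Itga4* lie low in both groups.

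The 20 other integrin subunit genes showed 5 rises and 1 fall among 11 tested, against 27.1% and 10.5% of all tested genes, with a median log2 fold change of 0.50. They showed 3 falls when WT replicate 3 was left out, a fit in which falls over all tested genes numbered 1717 in place of 1408. *Itga6*, a laminin receptor subunit, was at 5.26, 5.48 and 3.50 FPKM in WT and at 26.1, 25.7 and 18.7 FPKM in KO (log2 fold change 2.20, limma, adjusted p = 0.000294). *Itgb7*, the other partner of alpha4, fell from 9.21, 8.95 and 6.96 FPKM in WT to 1.73, 1.29 and 1.71 FPKM in KO (log2 fold change -2.09, limma, adjusted p = 0.000104). *Itga4* and *Itgb7* thus differed in opposite directions, each without overlap between groups. *Itgb5*, a partner of alphav, rose by 0.73 on the log2 scale, and the neighbours of *Itgam* on chromosome 7, *Itgax* (CD11c) and *Itgad* (CD11d), by 0.75 and 0.82. *Itgb2l*, a relative of *Itgb2* made in neutrophils and named here after its values were seen, was at 0.227, 0.101 and 0.154 FPKM in WT and at 1.27, 1.31 and 1.26 FPKM in KO. It is 1 of the 5 rises, but it passed the filter on low values only through the KO libraries, so its call depends on the filter. *Itgax* lost its call without KO replicate 1 or 2 (limma, adjusted p = 0.0711 and 0.0697), with median-of-ratios scaling (0.0599) and with no filter on low values (0.0528).

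Of 36 genes of integrin activation and linkage to the cytoskeleton, 34 were tested, 13 rose and 1 fell, against 27.1% and 10.5% of all tested genes, with a median log2 fold change of 0.34. Among the rises *Rasgrp2*, named after its values were seen, passed the filter on low values only through KO (mean 0.239 FPKM in WT and 0.865 in KO). *Fyb*, the adaptor ADAP, rose by 1.27 on the log2 scale, *Rassf5*, the Rap1 effector RAPL, by 1.13, *Vcl* (vinculin) by 1.01 and *Ptk2b*, the focal adhesion kinase relative PYK2, by 0.82. The fall was that of *Cyth1*, cytohesin-1, which binds the tail of beta2, at -0.65. Under median-of-ratios scaling the list had 7 rises and 5 falls, and *Vcl* was not called (limma, adjusted p = 0.0685). Over all 13353 genes tested with that scaling, 2145 were called higher and 2222 lower. Without KO replicate 1 or 2 the list had 7 or 8 rises, *Vcl* and *Ptk2b* losing their calls, and without WT replicate 3 it had 5 falls. Over all 13367 tested genes the rises numbered 2442 without KO replicate 1 or 2, and the falls 1717 without WT replicate 3.

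Of 18 matrix and soluble ligands of integrins, 14 were tested, 3 rose and 2 fell, against 27.1% and 10.5% of all tested genes, with a median log2 fold change of 0.10. *Thbs1* (thrombospondin-1) was at 1003, 1037 and 743.5 FPKM in WT and at 657, 657.5 and 554 FPKM in KO, with a log2 fold change of -0.56, and *Tnc* (tenascin-C) fell by 1.03 on the log2 scale. *Tgfb1*, whose latent form is bound by alphav integrins, rose by 0.55, *Mfge8*, which bridges dying cells to alphav integrins, by 0.45 and *Ccn1*, a matricellular protein, by 0.38. *Fn1*, the fibronectin bound by alpha4 and alpha5 and named here after its values were seen, was at 226, 235 and 94.5 FPKM in WT and at 297.5, 313 and 158.5 FPKM in KO and was not called (log2 fold change 0.52). With median-of-ratios scaling *Mfge8* and *Ccn1* were not called (log2 fold changes 0.23 and 0.17, limma, adjusted p = 0.0776 and 0.126). The call of *Thbs1* was lost when any library but WT replicate 3 was left out (limma, adjusted p from 0.0632 to 0.0874). The 3 fibroblast markers that fell, named beside *Vcam1*, moved with *Thbs1* and *Tnc*, while the other 3 tested fibroblast markers were not called. Of these *Col1a2*, named after its values were seen, was higher in every KO library (mean 130 FPKM in WT and 161 in KO). The part of fibroblasts in the falls of *Thbs1* and *Tnc* was not tested.

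Of 27 other cell adhesion molecules 16 were tested, 4 rose and 5 fell, against 27.1% and 10.5% of all tested genes, with a median log2 fold change of -0.10. Among the falls *Jam2*, named after its values were seen, passed the filter on low values only through WT (mean 0.977 FPKM in WT and 0.410 in KO). The tetraspanin *Cd81* rose by 1.03 on the log2 scale and *Selplg*, the P-selectin ligand PSGL-1, by 0.95, while *Cadm1* and *Cd99l2* each rose by 0.53. The calls of *Cadm1* and *Cd99l2* were lost with median-of-ratios scaling (limma, adjusted p = 0.102 and 0.0541), and that of *Cadm1* also with no filter on low values (0.0574) and without KO replicate 1 or 2 (0.0938 and 0.0639). *Pvr* (CD155) fell by 1.23, *Cd47*, the ligand of SIRP-alpha, by 0.81, *Cd9* by 0.71 and *Cd44*, the receptor of hyaluronan, by 0.41 on the log2 scale. The falls numbered 2 or 3 when WT replicate 1, WT replicate 2, KO replicate 1 or KO replicate 2 was left out, and *Cd44* was not called without any 1 library other than WT replicate 3. Falls over all tested genes numbered 1123, 1167, 1047 and 1075 in those 4 fits, in place of 1408.

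**Figure D5:**
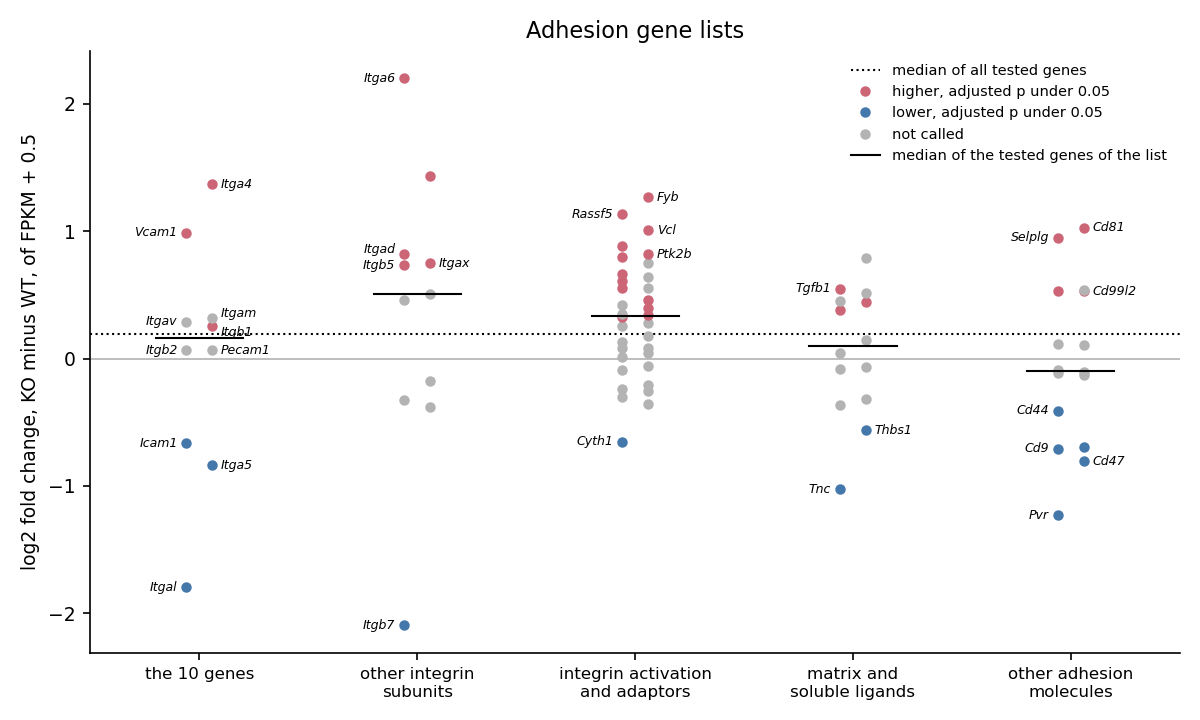
Difference KO minus WT in log2(FPKM + 0.5) for each tested gene of the 10 adhesion genes and of the 4 other adhesion lists. Genes called by limma at an adjusted p under 0.05 are red (higher) or blue (lower) and others grey, short lines are list medians, and the dotted line is the median of all tested genes, 0.19. The other integrin subunits spread from *Itgb7* at -2.09 to *Itga6* at 2.20.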

How the data were processed

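The authors deposited one table of FPKM values for 55335 mouse Ensembl genes, with 1 column for each of the 6 libraries. The submitters' processing notes name fastp 0.17.1, HISAT2 2.1.0, DESeq2 1.18.1 and R 3.4.3, and the genome build and annotation are not given in the sources used here. The labels and the published methods disagree on the RNA reagent, the library kit and the sequencer. Whether counting used strand is not given in the sources used here, so reads of genes that overlap on opposite strands could be misassigned. Reads of near-identical genes could be split whether or not strand was used. FPKM values are scaled to the total of a library, so a change in abundant transcripts shifts all others. Depth is unknown: of low values, between 39.7% and 43.9% lay within 0.1 of a whole multiple of the smallest step, where chance gives 20%, so no read counts were recovered and no count test was run. DESeq2, which the authors used, needs counts.

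Columns were matched to samples by title. Of the identifiers, 99.7% matched GENCODE M21 (GRCm38), which gave symbols, positions and lengths, and promoters came from RefSeq (GRCm38.p6). The two-sided limma test (version 3.58.1, R 4.3.3, lmFit and eBayes with trend) was run on log2(FPKM + 0.5) of genes averaging 0.5 FPKM or more, with Benjamini-Hochberg adjustment over the 13367 genes. Values are the mean ± SD of 3 libraries. The fit was tested on simulated data of 13367 genes, of which 200 were changed by 1 on the log2 scale. It called 138 of these 200 in the right direction and 5 other genes, so changes of that size can be missed in such data. In the real data many more genes were called (3619 higher and 1408 lower), which makes the cutoff on the unadjusted p less strict. The share found in the simulation therefore does not carry over to these libraries. Ratios were tested by exact permutation in scipy 1.17.1. Alternative settings comprised 2 pseudocounts (0.1 and 1), 2 filters, 3 scalings, a block on replicate number, omission of each library or of replicate 3 in both groups, and the threshold of the study. The 10 genes and the lists were chosen with earlier results of these data known. Besides the 10 genes, from each list the text names up to 4 genes per direction with the largest change among called genes that averaged 1 FPKM or more and whose groups did not overlap, fixed marker genes, and genes said to be named after their values were seen. No protein sequences were used.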

Additional observations from a re-analysis of the deposited data

How the results depend on the processing

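The calls and directions of *Itgal*, *Itga4*, *Itga5*, *Icam1* and *Vcam1* held under all 15 alternatives of the limma fit at an adjusted p under 0.05. Genes without a call changed sign: *Itgam* to -0.007 without replicate 3 of both groups, *Itgb2* to -0.15 with median-of-ratios factors, -0.022 after upper-quartile scaling and -0.006 without WT replicate 3, *Itgav* to -0.19 without KO replicate 2, and *Pecam1* to -0.068 with median-of-ratios scaling, -0.06 without WT replicate 3 and -0.018 without replicate 3 of both groups. The log2 ratio of *Itgam* to *Itgb2* became -0.025 without replicate 3 of both groups, and that of *Itgav* to *Itgb1* became -0.22 without WT replicate 3 and -0.47 without KO replicate 2. The cause was not tested.

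With median-of-ratios scaling the median log2 fold change was -0.014 for the 10 genes, 0.12 for activation and adaptor genes, -0.12 for matrix ligands and -0.26 for other adhesion molecules. That scaling gave 3 falls among other integrin subunits, 7 rises and 5 falls among activation genes, 1 rise among matrix ligands and 2 rises among other adhesion molecules. Over all 13353 genes tested with it, 2145 were called higher and 2222 lower. Upper-quartile scaling gave 2 falls among activation genes and a median of -0.17 for other adhesion molecules. Over all 13364 genes tested with it, 2874 were called higher and 1652 lower. With no filter on low values the medians were 0.16 for other integrin subunits and 0.017 for other adhesion molecules, and 1 matrix ligand fell. Over the 28101 genes tested without that filter, 3180 were called higher and 1325 lower, with a median of 0.045. The study's threshold left 1 rise and 1 fall among the 10 genes, 2 rises among other integrin subunits, 3 rises and 0 falls among activation genes, 0 rises and 1 fall among matrix ligands, and 1 of each among other adhesion molecules. Of all tested genes it left 6.68% higher and 4.43% lower. Without replicate 3 of both groups the median of the 10 genes was 0.006, other integrin subunits had 3 falls, activation genes 4 falls and matrix ligands 5 rises and 6 falls. Over all 13367 tested genes that fit called 4518 higher and 1943 lower, with a median of 0.178.

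With each library left out in turn, the median of the 10 genes ran from 0.019 to 0.20 (lowest without WT replicate 3), with 2 to 3 rises and 3 falls. Over all 13367 tested genes these fits called 2442 to 4228 higher and 1047 to 1717 lower. Other integrin subunits had 1 to 3 falls, activation genes 7 to 16 rises and 1 to 5 falls, matrix ligands 1 to 3 falls, and other adhesion molecules 2 to 5 falls and a median from -0.079 to -0.02. The log2 fold change ran from -0.19 to 0.687 for *Itgav* and from -0.06 to 0.136 for *Pecam1*, and the log2 ratio of *Itgav* to *Itgb1* from -0.47 to 0.496. These fits assume that all libraries vary alike.

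Whether the replicate numbers pair the libraries could not be decided, because deviations from a mean of only 3 libraries depend on each other. Correlations of deviations from the group means were 0.116, 0.036 and 0.264 for numbers 1, 2 and 3, and WT replicates 1 and 2 correlated best with KO replicates 2 and 1, so only replicate 3 matched its own number. With the replicate block, 4253 genes were called higher and 1681 lower in place of 3619 and 1408, other integrin subunits had 3 falls and matrix ligands 5 rises, and the 10 genes kept 3 rises and 3 falls. The block ratios had exact p of 0.25 or more, the smallest that 3 pairs can give.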
